A study of Mus musculus with 3 samples.

Results

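Il6st, which encodes the shared receptor chain gp130, was described here in ribosome-bound RNA of mouse heart endothelium together with its partner receptors Lifr, Osmr and Il6ra, the kinases Jak1, Jak2 and Tyk2, the transcription factor Stat3 and the inhibitor Socs3. These 9 genes were taken by symbol from a deposited table of 17583 genes, and all 9 were listed. The RNA came from hearts of 3 mice of genotype Cdh5-CreERT2;Rpl22tm1.1Psam (EC-RiboTag), in which a tamoxifen-inducible Cre driven by the promoter of the endothelial cadherin gene adds a hemagglutinin tag to the ribosomal protein RPL22. Tagged ribosomes were pulled down from heart homogenates, and the RNA on them was sequenced as reads of 72 bases. The labels place the hearts at day 7 after coronary ligation, whereas the methods of the study mention no ligation for this experiment. The labels give no age and do not spell out the letters Rz in the sample titles. Elsewhere the study uses RZ for the remote zone of infarcted hearts. For quantitative PCR it also took endothelial ribosome-bound RNA from this zone of EC-RiboTag hearts, likewise at day 7 after infarction. Its description of the RNA sequencing of EC-RiboTag mice names neither a zone nor an infarction. It is therefore not settled here if the RNA is that of the whole heart or of the remote zone. All 3 libraries belong to 1 group, so no contrast between conditions could be tested, and no library of input RNA was analysed here.

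gp130 has no enzyme activity of its own. It forms receptors with a partner: with the interleukin-6 receptor alpha chain (Il6ra) it transmits interleukin-6, with Lifr leukemia inhibitory factor, and with Osmr oncostatin M. Ligand binding brings together Janus kinases (JAKs) held at the receptor tails, the kinases phosphorylate STAT3, and STAT3 moves to the nucleus and switches on genes, among them Socs3, whose product binds gp130 and the kinases and ends the signal. Endothelial cells are known to use gp130 signals to express adhesion molecules and chemokines, and cells with little interleukin-6 receptor of their own can respond through its soluble form.

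Values are normalized counts, that is, reads per gene divided by a size factor of the library and rounded, given as mean ± SD over 3 mice. They summed to 7149102, 7158585 and 7268785 in mice 1, 2 and 3. The whole numbers that rounding skips or doubles put the reads kept and counted in listed genes at about 7319000, 6755000 and 7565000. The libraries stood apart in sex-linked genes, since Xist had 4, 618 and 869 in mice 1, 2 and 3, and the Y-linked Ddx3y had 1080, 3 and 1. The 12 endothelial markers were all listed with means over 1000 and a list median of 2740, highest for Flt1 and lowest for Cldn5. Other cells of the heart were represented too. Per kilobase of canonical transcript, the list median was 688.5 for the endothelial genes and 565.2 for 10 cardiomyocyte genes, of which Myl2, with 819.2, exceeded every endothelial marker, though not per kilobase of all annotated exons, where it had 178.9 against 362.1 for Eng. Ttn, the highest of that list as a count, was the lowest per kilobase with 78.5. The median per kilobase was 106.6 for 8 fibroblast genes, 41.8 for 8 mural genes and 25.7 for the 8 listed leukocyte genes of 10. Cd3e and S100a8 were absent. The distance between lists depended on the length. Per kilobase of all annotated exons, the cardiomyocyte genes lay between 71.8 and 360.0 and the endothelial genes between 131.1 and 709.0. In such pulled-down bulk RNA, the number of cells of a type, their RNA per cell and untagged RNA carried along cannot be told apart. The study compared pull-down with input by quantitative PCR for endothelial, cardiomyocyte, leukocyte and fibroblast markers. No such comparison was made here.

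Il6st was the highest of the 9 genes. On chromosome 13 of GRCm39 (112600604 to 112646620, plus strand), its normalized count was 2682 in mouse 1, 2378 in mouse 2 and 3048 in mouse 3, or 2703 ± 335 (SD, n = 3 mice). Mouse 2 was the lowest and mouse 3 the highest, and every mouse lay above every value of the other 8 genes. By mean Il6st ranked 64 of all genes, so that 0.364% of the genes were as high. Lifr, the signalling chain for leukemia inhibitory factor, on chromosome 15 (7120095 to 7226970, plus strand), had 1525, 1271 and 1464, or 1420 ± 133, and ranked 833. Osmr, the oncostatin M chain, also on chromosome 15 (6843058 to 6904450, minus strand), had 846, 816 and 1045, or 902.3 ± 124.5, and ranked 2495. As counts, the values of Lifr and Osmr did not overlap. Per kilobase of canonical transcript Osmr lay above Lifr in each mouse, by less than the larger SD. Per kilobase of all annotated exons Lifr again had the higher mean, 102.9 against 72.8.

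Il6ra was the lowest of the 9. This chain binds interleukin-6 but relies on gp130 to signal. On chromosome 3 (89771366 to 89820503, minus strand), it had 174, 145 and 192 in mice 1, 2 and 3, or 170.3 ± 23.7, and ranked 9772. Its highest mouse lay below the lowest mouse of every other gene of the group. It was nevertheless well above the edge of detection, since the 145 of mouse 2 rested on about 137 reads. Il6ra is known from leukocytes, so the leukocyte genes are given beside it. The listed leukocyte genes summed to 582, 769 and 789 in mice 1, 2 and 3, lowest in mouse 1, where Il6ra was not the lowest. Per kilobase of transcript, Il6ra had 19.7 ± 2.74 and the leukocyte list a median of 25.7. The part of leukocyte RNA in the level of Il6ra was not tested.

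Among the kinases, Jak1, the kinase on which gp130 signalling is known to depend most, was the highest in each mouse. On chromosome 4 (101009564 to 101122479, minus strand), it had 1415, 1591 and 1659, or 1555 ± 126 (rank 631). Jak2, on chromosome 19 (29229228 to 29290480, plus strand), had 965, 1096 and 1140, or 1067 ± 91.0 (rank 1752). Mouse 1 was the lowest for both of these kinases, and it is the library that differed in Xist and Ddx3y, whose part in this was not tested. Tyk2, on chromosome 9 (21015364 to 21042539, minus strand), had 716, 619 and 764, or 699.7 ± 73.9 (rank 3783), and was lowest in mouse 2. The values of the 3 kinases did not overlap.

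Stat3 had the smallest spread of the 9 genes. On chromosome 11 (100775924 to 100830366, minus strand), it had 1280, 1204 and 1337, or 1274 ± 66.7, a coefficient of variation (SD over mean) of 5.24%. Socs3 lies on the same chromosome (117856905 to 117860873, minus strand) and had the largest spread, with 467, 353 and 495, or 438.3 ± 75.2, a coefficient of variation of 17.2%. Mouse 2 was low for Socs3, while mice 1 and 3 were close to each other. Stat3 exceeded Socs3 in each mouse without overlap.

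**Figure D1:**
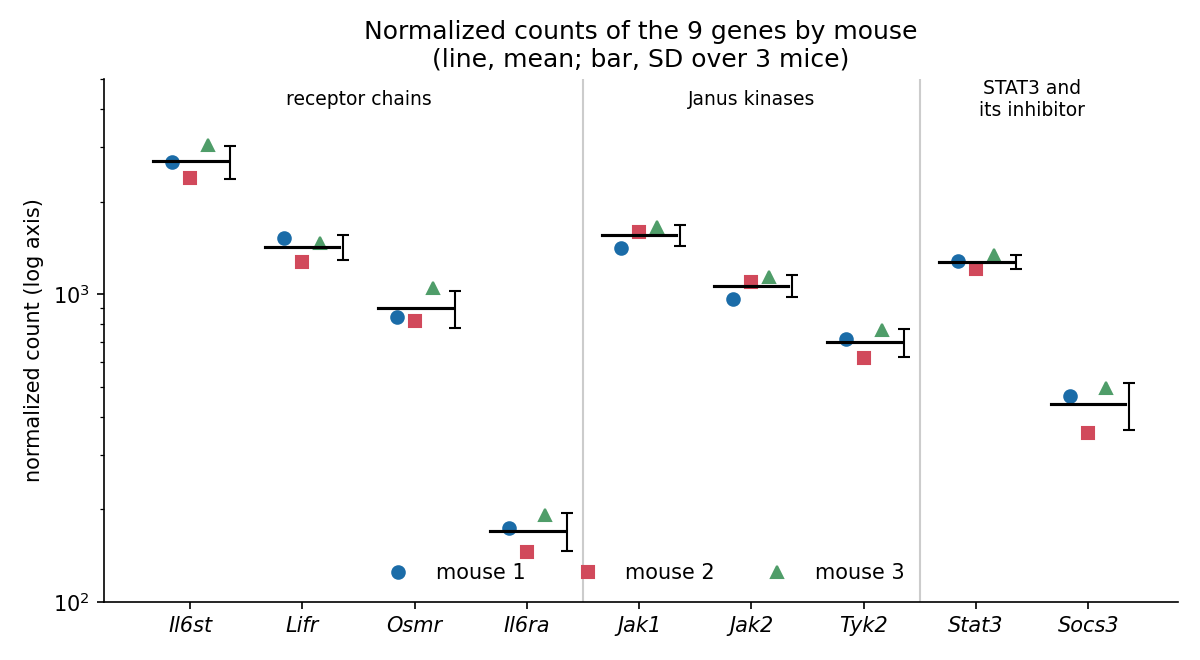
Normalized counts (vertical log axis) of the 9 genes, grouped by role, with 1 symbol per mouse, a line at the mean and a bar for the SD over 3 mice. Il6st lies at the top with 2378 to 3048, Il6ra at the bottom with 145 to 192, and the other 7 genes between 353 and 1659.

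As counts, most of the 9 genes were high among all genes, but Socs3 ranked 6199 and Il6ra lay below the median of all genes, 237. A mean of 1000 was reached by 5 of the 9 (Il6st, Jak1, Lifr, Stat3 and Jak2), against 11.5% of all genes of the table. Such counts also grow with the length of the transcript, and 8 of the 9 genes span 10 or more exons, with canonical transcripts (the form that Ensembl chooses for each gene) from 4567 bases for Stat3 to 9948 bases for Lifr. Socs3 is the exception, with 2 exons and 2663 bases. None of the 9 canonical transcripts held a window of read length with an exact copy elsewhere in the genome. None of their exons overlapped an exon of another gene on the same strand. Exons outside the canonical transcript and reads shortened by trimming were not examined in this way. For Il6st, all annotated exons hold 15529 bases, against 8678 in the canonical transcript.

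Divided by length, the place of the group among other genes depended on the length and on the genes it was set against. Above the median of 176.3 normalized counts per kilobase, taken over genes whose mean reached 200, were 4 of the 9 genes, where the median by its definition leaves 50.0% of genes above it. Il6ra, with a mean below 200, is counted among the 9 here. Per base of all annotated exons 6 of the 9 lay above the median, and per canonical base 8 of the 9 did when every gene with a length was the reference. Il6st still led with 311.4 ± 38.7 per kilobase, followed by Stat3 with 278.9 ± 14.6 and Jak1 with 275.7 ± 22.3. These 3 levels per kilobase did not differ by more than the larger SD of each neighbouring pair. Jak2 followed with 194.1 ± 16.6, a step down from Jak1 of more than the larger SD and in the same order in each mouse. Below the median, Socs3 with 164.6 ± 28.2, Osmr with 164.2 ± 22.6, Lifr with 142.7 ± 13.3 and Tyk2 with 142.1 ± 15.0 followed closely. No neighbours among these 4 differed by more than the larger SD. Il6ra with 19.7 ± 2.74 stood apart at the end. Of the 8 neighbouring pairs in this order, 3 differed by more than the larger SD, against all 8 in the order of undivided counts.

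The choice of length changed this order. Per kilobase of all annotated exons joined, Il6st had 174.0 ± 21.6 and Jak2, whose exons add few bases beyond the canonical transcript, had 168.5 ± 14.4 and moved to the second place, within the larger SD of Il6st. Jak1 had 143.6 ± 11.6 and Stat3 126.2 ± 6.61 on this scale, and Osmr fell below Tyk2. Il6st remained first and Il6ra last on each of the 3 scales. Which length describes the RNA present was not tested.

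**Figure D2:**
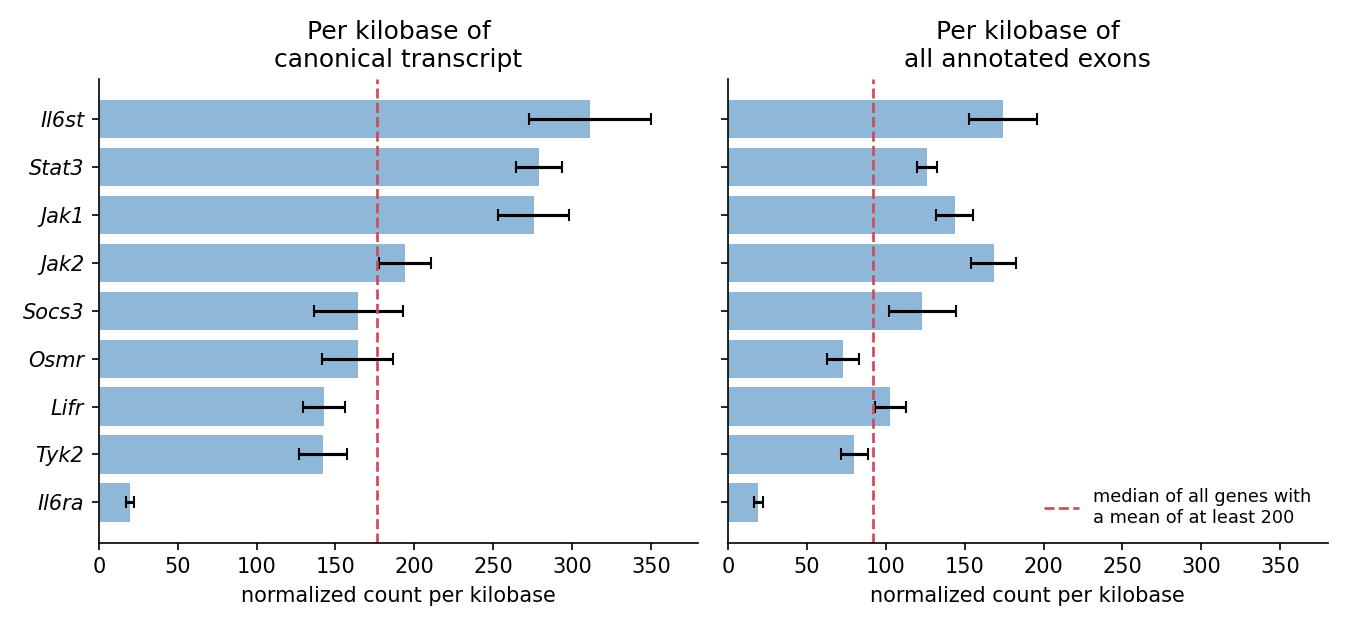
Normalized count per kilobase (horizontal axis, bars from 0, error bars SD over 3 mice) of the 9 genes, divided by the canonical transcript on the left and by all annotated exons on the right, with the median of genes whose mean reached 200 as a dashed line. Il6st is the longest and Il6ra the shortest bar in both panels, while Jak2 moves from 194.1, the fourth place, to 168.5, the second place.

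Ratios within each mouse describe the balance of receptor chains, kinases and inhibitor in the pulled-down RNA, not that of their proteins. In this family of 7 ratios, taken per base of canonical transcript, an exact sign-flip permutation test gave a two-sided p of 0.25 for every ratio (Benjamini-Hochberg adjusted p = 0.25), which is the smallest p that 3 mice allow. No ratio could therefore pass 0.05 in this test, whatever its size. Each ratio had the same sign in the 3 mice on this scale.

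gp130 RNA was in excess of each of the partner chains Lifr, Osmr and Il6ra taken singly. It was not compared with the partner chains together. Il6st exceeded Il6ra by a log2 ratio of 3.94, 4.03 and 3.98 in mice 1, 2 and 3, with a mean of 3.98 ± 0.04 (SD, n = 3), or 15.8-fold. The spread of this ratio was below the 0.11 that counting reads alone would give. Per base of all annotated exons the ratio was 9.06-fold. Il6st exceeded Lifr 2.18-fold (log2 ratio 1.12 ± 0.12) and Osmr 1.90-fold (0.93 ± 0.07). The ratio to Osmr was 3.00-fold without division by length.

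Jak1 exceeded Jak2 by a nearly constant log2 ratio of 0.52, 0.50 and 0.50 in mice 1, 2 and 3 (mean 0.51 ± 0.01). The spread of 0.008 was smaller than the 0.057 that counting alone gives. The direction of this ratio turned with the length, to -0.23 per base of all annotated exons. Jak1 exceeded Tyk2 1.94-fold (log2 ratio 0.96 ± 0.19), and the log2 ratio of Tyk2 to Jak2 was -0.45 ± 0.20, or -1.08 per base of all annotated exons. Stat3 exceeded Socs3 by 0.68, 0.99 and 0.66, with a mean of 0.77 ± 0.19, or 1.71-fold. Mouse 2 had the largest excess of Stat3 over Socs3, while mice 1 and 3 were alike. This ratio was 2.93-fold without division by length and 1.03-fold per base of all annotated exons, where Stat3 exceeded Socs3 in 1 of 3 mice only, so the excess of Stat3 over its inhibitor rested on the length used.

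**Figure D3:**
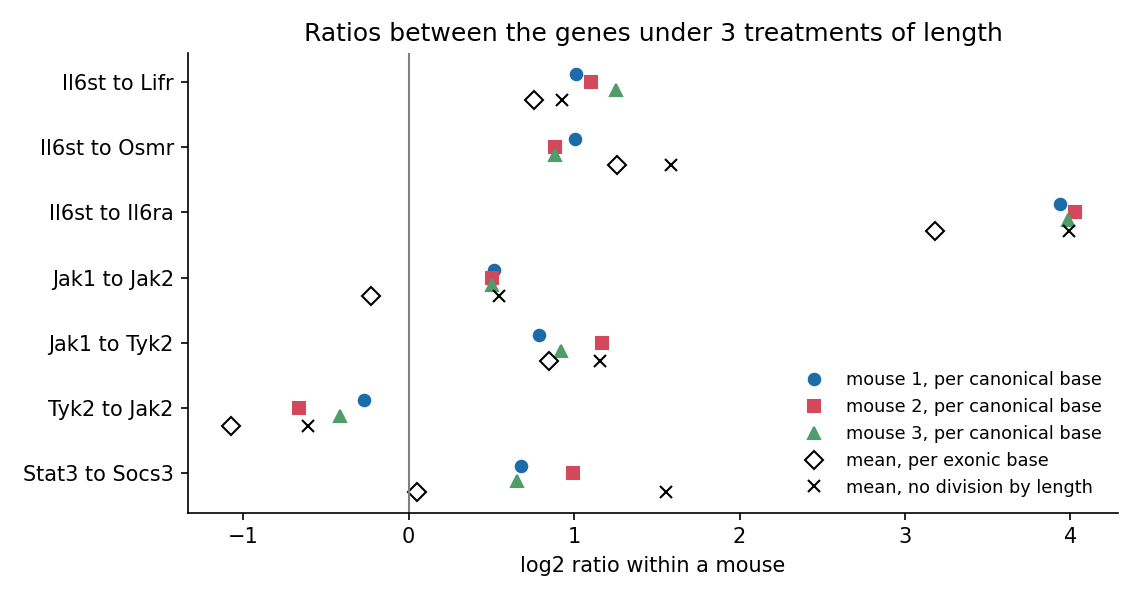
Log2 ratio between pairs of the 9 genes within each mouse (horizontal axis, 1 coloured symbol per mouse, per base of canonical transcript), with the mean per base of all annotated exons as an open diamond and without division by length as a cross. Il6st to Il6ra lies farthest from 0 at 3.94 to 4.03, and Jak1 to Jak2 crosses 0 when all exons are used (-0.23).

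The 9 genes varied moderately between mice. Of the 8 whose mean reached 200, 0 had a coefficient of variation over 20%, against 8.00% of all 9358 such genes. With mouse 1 left out, Socs3 passed this limit with 23.7%, and with any other mouse left out none of the 8 did. The median coefficient of all 9358 genes was 7.37%, and 7 of these 8 lay above it, from 8.10% for Jak1 to 17.2% for Socs3. Of the 8, only Stat3 lay below. The SD of Il6st was 6.47 times that expected from counting reads, that of Osmr 4.15 times and that of Socs3 3.61 times. For Stat3 and Il6ra it was 1.87 and 1.82 times.

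The mice were ordered alike across the group, a pattern looked for after the values had been seen. Mouse 2 was the lowest for 7 of the 9 genes, all but Jak1 and Jak2, against 28.6% of the 10951 genes whose mean reached 100. Mouse 3 was the highest for 8 of the 9, all but Lifr, against 29.8% of these genes. The counts were the same after scaling by trimmed means and to equal totals. The values were already normalized, and these factors lay between 0.989 and 1.006, so they could hardly have changed the order. The log2 difference between mouse 3 and mouse 2 was 0.49 for Socs3, 0.41 for Il6ra, 0.36 for Il6st, 0.36 for Osmr and 0.30 for Tyk2. It was smaller for Lifr with 0.20 and Stat3 with 0.15, and 0.06 for both Jak1 and Jak2. Across the 9358 genes whose mean reached 200 the median was -0.02 and the upper quartile 0.11, which 7 of the 9 genes exceeded.

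Marker genes followed this order in part. The 12 endothelial markers summed to 31688, 30102 and 30757 in mice 1, 2 and 3, with 4 of them lowest in mouse 2 and 2 highest in mouse 3. The cardiomyocyte genes summed to 20105, 20765 and 23893, a sum carried by Ttn and Ryr2, while 4 of the 10 were highest and 5 lowest in mouse 3. The fibroblast genes summed to 3047, 3970 and 4186 and the mural genes to 1372, 1917 and 2104, both lowest in mouse 1 and highest in mouse 3, as were the leukocyte genes with 582, 769 and 789. Among the marker lists, only the endothelial list had its lowest sum in mouse 2. Of the 9 genes, 6 were both lowest in mouse 2 and highest in mouse 3, all but Lifr, Jak1 and Jak2. This order was also that of Dcn (813, 579 and 1007), Lum (458, 309 and 618), Actn2 (859, 656 and 885) and Ptprb (4347, 3891 and 4497). These genes were singled out for it after their values were seen, and most genes of their lists did not share it. It held for 2 of the 8 fibroblast, 1 of the 10 cardiomyocyte and 1 of the 12 endothelial genes. No leukocyte or mural gene had it. The share of all genes with this joint order was not computed, so none of these counts can be set against it. Lifr, Osmr and Il6st are known from cardiomyocytes and fibroblasts as well, and the part of such RNA in their levels and in this order was not tested.

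**Figure D4:**
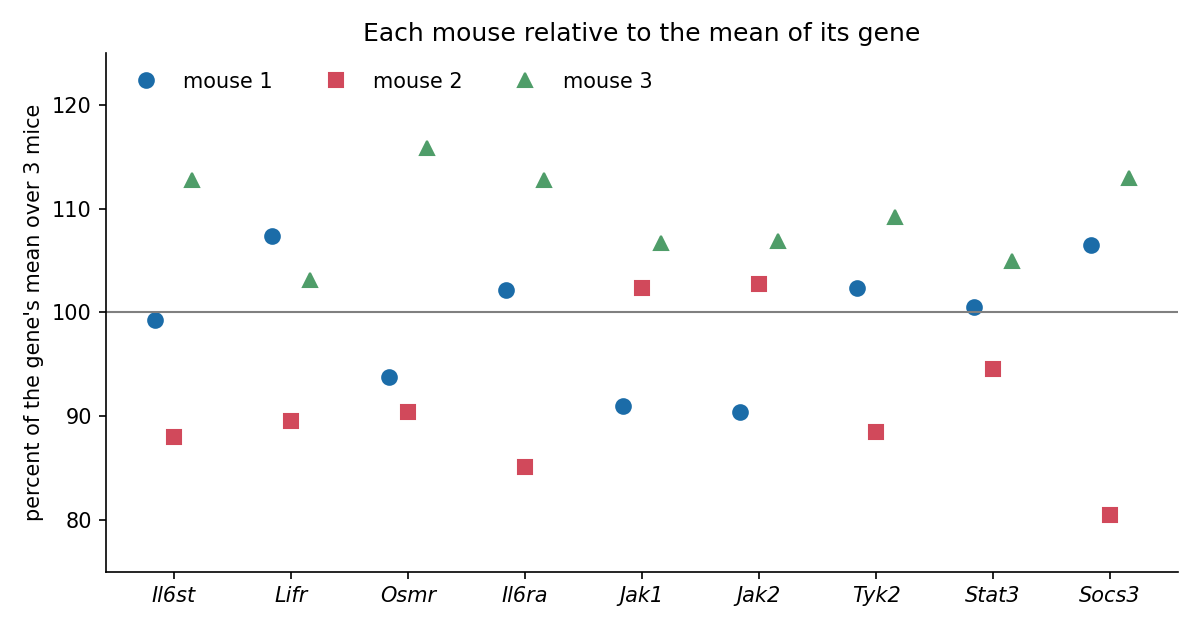
Value of each mouse as a percentage of the mean of the gene over 3 mice (vertical axis), with 1 symbol per mouse. Mouse 2 is the lowest for 7 genes, down to 80.5% for Socs3, and mouse 3 the highest for 8 genes, up to 115.8% for Osmr, while Jak1 and Jak2 are lowest in mouse 1 with 91.0% and 90.4%.

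The ligands of the receptors were barely present in the same RNA. Of 10 ligand genes, 8 were listed, with a median of 10.8 normalized counts against 237 for all genes of the table. Cntf and Ctf2 were absent, and the table lists no gene that stays below 4 in every mouse. The highest ligand was Clcf1, a cytokine that signals through the ciliary neurotrophic factor receptor, gp130 and Lifr, with 84.3 ± 20.3. Ctf1, which encodes cardiotrophin-1, had 27.0 ± 2.65. Il6 had 16, 15 and 9 in mice 1, 2 and 3, and Osm, the lowest per kilobase, had 0, 3 and 5. A count of 0 still allows an expected count of up to about 3 reads. The values of Il6 and Osm thus rest on few reads in each mouse.

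Other receptor chains of the family, 3 of 4 listed, had a median of 141.9 per kilobase, between the 4.17 of the ligands and the 164.6 of the 9 genes. Il27ra, the interleukin-27 chain that pairs with gp130, had 381.3 ± 22.8, and Il11ra1, the interleukin-11 chain, had 331.3 ± 24.9. Il11ra1 has a close copy, Il11ra2, which was absent from the table, and reads common to such copies were removed, so its level is uncertain. Both chains thus had higher counts than Il6ra in each mouse, and Il11ra1 had 160.4 ± 12.1 per kilobase against 19.7 for Il6ra. Cntfr, the ciliary neurotrophic factor chain, was the lowest with 20.3 ± 8.74.

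Within their families, Jak1 and Stat3 led per kilobase of canonical transcript but not of all annotated exons, where Jak2 with 168.5 lay above Jak1 with 143.6, and Stat5b with 164.5 and Stat6 with 155.0 above Stat3 with 126.2. Per kilobase of canonical transcript, Jak3, which serves receptors with the common gamma chain and is named here after its value was seen, had 155.1 ± 10.2, between Jak2 and Tyk2. Stat6, the interleukin-4 factor, had 269.9 ± 13.7 and did not differ from Stat3 by more than the larger SD. Stat5b had 223.4 ± 9.25 and Stat2 164.5 ± 13.6, while Stat4 was the lowest with counts of 0, 6 and 4. Of the 7 other JAK and STAT genes, 5 reached a mean of 200 and 0 of these varied by over 20%. Stat5a and Stat5b are close paralogs, so their split is uncertain.

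Socs3 was not the leading brake of the pathway per kilobase of canonical transcript. Among the 15 other brakes and phosphatases, all listed, with a median of 160.7 per kilobase, Ptpn11 was the highest. It encodes SHP2, a phosphatase that docks on gp130, and had 2014, 2037 and 2092, or 363.4 ± 7.11 per kilobase. Socs2 had 350.9 ± 17.4 per kilobase, above the 164.6 ± 28.2 of Socs3 in each mouse. Per kilobase of all annotated exons this turned, with 58.4 for Socs2 against 123.1 for Socs3, while Ptpn11 had 260.4. Ptpn1, a phosphatase that acts on JAK2 and TYK2, had 238.6 ± 8.74, and Ptpn6, the SHP1 of blood cells, was the lowest with 15.0 ± 2.72. Of the 13 brakes whose mean reached 200, 0 varied by over 20%. The spread of Socs3, 17.2%, was larger than that of each other gene of its family, among which Socs7, with 2.71%, had the smallest and Cish, with 11.03%, the largest.

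Genes known as targets of STAT3 were mostly well represented, although many other signals act on them. All 19 were listed, 7 of them with means over 1000 (11.5% of all genes), and their median per kilobase was 212.0, against 176.3 for genes whose mean reached 200. The highest were Ccnd1 (cyclin D1) with 699.9 ± 44.0 per kilobase, Mcl1, which protects from apoptosis, with 581.3 ± 33.3, and Bcl2l1, of similar function, with 461.3 ± 21.2. Bcl6, a transcriptional repressor, was the lowest with 41.8 ± 6.87. Of the 15 whose mean reached 200, 2 varied by over 20%, against 8.00% of all such genes. Fos had 252, 220 and 652 in mice 1, 2 and 3, and the acute-phase gene Serpina3n had 339, 423 and 532. Both were highest in mouse 3, as Socs3 was, but mouse 2 was the lowest for Fos only. Over the 19 targets, mouse 2 was the lowest for 5 and mouse 3 the highest for 5, shares close to the 28.6% and 29.8% of genes whose mean reached 100.

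**Figure D5:**
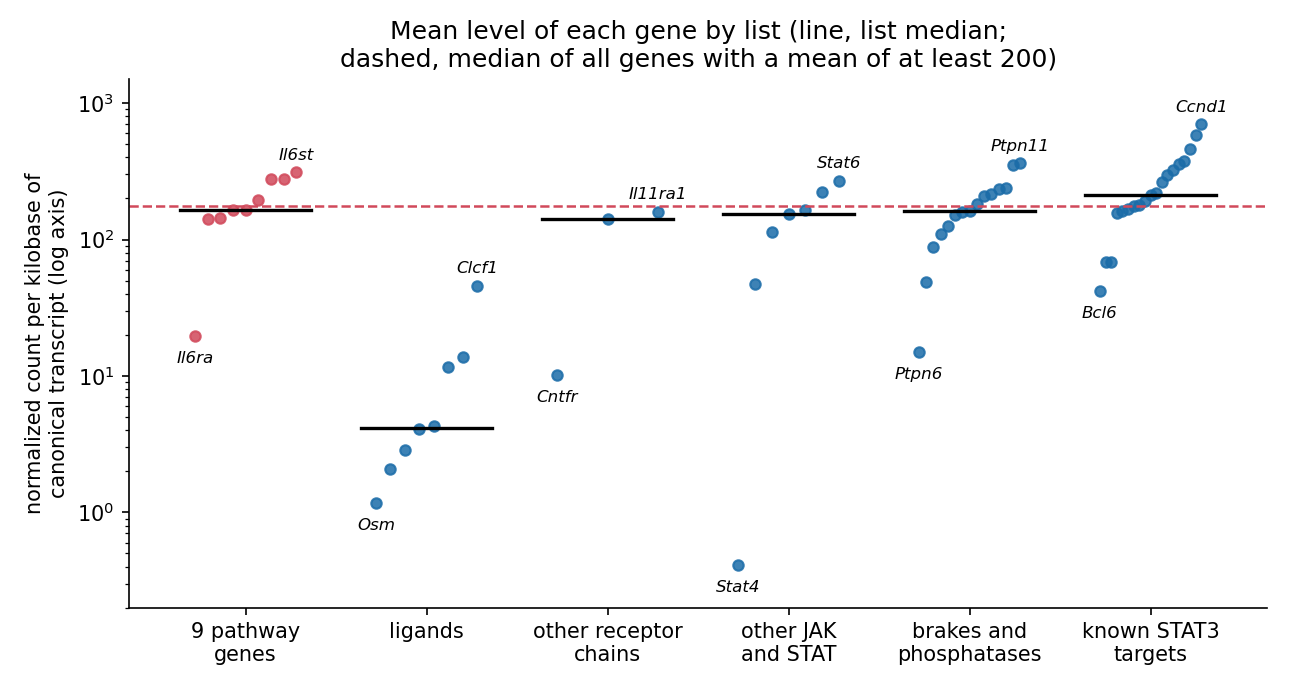
Mean normalized count per kilobase of canonical transcript (vertical log axis) of each listed gene, by list, with a line at the list median and the highest and lowest gene named. The ligands lie lowest with a median of 4.17, and the known STAT3 targets have a median of 212.0, above the dashed median of genes whose mean reached 200 (176.3).

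The promoter of Socs3 is shown because STAT3 is known to act through it, and because Socs3 was the most variable of the 9 genes. STAT proteins bind palindromes of the form TTCNNNGAA, which reads the same on both strands. In RefSeq promoter windows (GRCm38.p6) of 250 bases before and 50 after a transcription start, this pattern was searched for all 9 genes, in 10 windows since Lifr has a second start. It occurred in 1 of the 9, Socs3, and in 8.30% of all 32851 windows. The same 300 bases were found in GRCm39 at chr11:117860143-117860442, minus strand, within the bounds of Socs3 in the deposited table and upstream of the first base of its canonical transcript. The match, in capitals, begins 154 bases before the RefSeq start.
Socs3 promoter: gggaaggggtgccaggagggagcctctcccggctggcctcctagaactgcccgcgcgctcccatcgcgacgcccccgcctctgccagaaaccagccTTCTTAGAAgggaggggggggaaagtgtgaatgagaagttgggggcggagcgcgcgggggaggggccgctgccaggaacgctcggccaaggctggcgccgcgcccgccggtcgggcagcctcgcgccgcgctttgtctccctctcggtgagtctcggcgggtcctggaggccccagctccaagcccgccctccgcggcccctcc
A match of letters is a description of the window, not evidence of binding. The windows of the 9 genes were rich in CG dinucleotides, with 15 to 53 in all but the second window of Lifr, which had 4, against a median of 7 over all windows.

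The genes nearest in level were sought by the smallest value of the largest log2 difference over the 3 mice. For Il6st it was Arhgef12, a guanine nucleotide exchange factor for RhoA, with 2691, 2428 and 3122 and a largest difference of 0.03, followed by Rapgef1 with 0.11 and 2900026A02Rik with 0.12. For Stat3 it was Gsk3b, a kinase of Wnt and insulin signalling, with 1275, 1197 and 1327 and a largest difference of 0.01, then Ppp6r1 and Wbp1l with 0.02 each. For Socs3 it was Dedd2 with 469, 368 and 468 and a largest difference of 0.08, then Tbc1d5 with 0.09 and Zfp64 with 0.10. Likeness over 3 mice rests mostly on a shared level, and no correlation was computed.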

How the data were processed

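Ribosome-bound RNA of 3 EC-RiboTag hearts was analysed. Per the labels and methods, the authors trimmed reads with Trimmomatic 0.39, aligned them with STAR 2.7.11a to mm39, removed duplicates (Picard 3.1.1), multi-mapping, ribosomal and mitochondrial reads, counted reads over exons by strand with featureCounts 2.0.4 and normalized with DESeq2 1.36.0. The deposited values are scores, whole numbers that the authors obtained by rounding normalized counts, not raw counts, so no count model was fitted. Duplicate removal can compress high levels per base.

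Canonical and exonic lengths came from GENCODE M39 (GRCm39), which holds 17475 of the 17583 genes (99.4%). Copies were searched with BLAST 2.17.0. Other steps used Python 3.11.15, numpy 2.4.6, pandas 2.3.3 and matplotlib 3.10.9, and were tested on simulated data. The spread expected from counting was derived from the estimated worth of 1 read, between 0.961 and 1.06 normalized counts. Pairs of libraries differed by 6.45 to 9.76 times the squared deviation of counting, so none was a mere resequencing of another. This deviation alone cannot tell separate mice from separate preparations of the same heart. In Xist and Ddx3y, mouse 1 (4 and 1080) stood apart from mouse 2 (618 and 3) and mouse 3 (869 and 1). Mice 2 and 3 were alike in these genes, which thus do not tell their hearts apart. The labels call the libraries biological replicates. Rescaling used trimmed means of log ratios (leaving out 30% of ratios and 5% of levels on either side).

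The members, lists and tests were chosen with earlier results of these data known. Genes named are the 9 members, in each pathway list the 3 highest and the lowest per kilobase, absent genes and those varying by over 20% at a mean of at least 200, in each marker list the highest and lowest, and the 3 genes nearest in level to Il6st, Stat3 and Socs3. Exceptions are Jak3, Myl2, Ryr2, Dcn, Lum, Actn2, Ptprb, the SOCS genes at the ends of the range of spread, and Xist and Ddx3y, named after their values were seen. Protein sequences were not used here. A further receptor chain is not reported here.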

Additional observations from a re-analysis of the deposited data

How the results depend on the processing

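Trimmed mean scaling and equal totals moved the level of each of the 9 genes by less than 0.1%. Their factors, between 0.989 and 1.006, are centred on 1, so a mean over the mice could hardly move. The counts of variable genes, of genes whose mean reached 1000, and of genes lowest in mouse 2 or highest in mouse 3 stayed as they were. Leaving out a mouse changed levels by -7.91% to 9.73%. The count of variable genes then lay between 0 and 1. Of the 7 ratios, 5 kept their sign in each mouse with each alternative. Stat3 to Socs3 had a mean of 0.05 per base of all annotated exons, above 0 in 1 of 3 mice (exact sign-flip permutation test, two-sided p = 1.0), and Jak1 to Jak2 turned to -0.23 per base of all annotated exons, by the longer exons of Jak1. Set against every gene with a length, 8 of the 9 genes lay above the median per base. This median is lower because it includes genes below a mean of 200. The scaling alternatives for the order of the mice were chosen after seeing the data. With 3 mice of a single group, the exact sign-flip test could not reach a p of 0.05. No paired comparison of conditions was possible because the libraries form 1 group.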
